A study of Drosophila melanogaster with 3 samples.

Results

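Peaks of E(z) binding in the pericentric ends of the chromosome arms and on the small chromosome 4 were taken from a pooled list of peaks in whole Drosophila melanogaster prepupae. A peak belonged to the set when its summit, the base of highest signal, lay above position 22000000 on 2L, above 22900000 on 3L, below 4200000 on 3R, above 22600000 on X, or anywhere on chromosome 4, all in dm6. The rule kept 267 of the 30000 peaks in the pooled list. Of these, 141 lay on chromosome 4 and 126 in the pericentric regions, with 45 on X, 37 on 2L, 34 on 3L and 10 on 3R. The right arm of chromosome 2 was not part of the rule, so its pericentric sequence stayed with the rest of the genome in every comparison.

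The animals came from a transgenic line with GFP fused to the C-terminus of E(z), and the fusion was mapped by chromatin immunoprecipitation and sequencing. The labels describe a precipitation against GFP, while their antibody field names E(z). Prepupae of unknown age and of both sexes were pooled, and the 3 biological replicates formed 1 group, so each comparison was between parts of the genome or between replicates. Every replicate and the pooled alignments had a permissive list of 30000 regions that include background, called relaxed below, and 5623 peaks of the pooled list formed the authors' optimal list, which had passed a threshold on reproducibility. These optimal peaks were the highest-ranked peaks of the pooled list by signal. Depth is unknown from these lists, the signal only ranked peaks within a list, and exact Clopper-Pearson intervals (95%) reflect the counting of peaks or genes and no other error. A signal from fewer cells bound and one from weaker binding in each cell cannot be told apart in whole animals.

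E(z) is the catalytic subunit of Polycomb repressive complex 2, which methylates lysine 27 of histone H3 at silenced developmental genes. In flies the Polycomb proteins gather at Polycomb response elements, where factors such as Pho and the GAGA factor bind DNA. Pericentric sequence is rich in repeats and is packaged mainly in heterochromatin marked by HP1 and methylated lysine 9 of histone H3. Chromosome 4 is almost wholly of this kind, yet it carries many active genes and several conserved developmental regulators, among them both Pax6 genes of the fly.

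The sequences at optimal summits of chromosome 4 are shown first because 20 of the 29 optimal members lay on this chromosome. They are the 7 of highest signal among the 12 whose window overlapped no annotated exon, in order of rank. Each line gives 151 bases centred on a summit, on the + strand of dm6, from RefSeq. Capitals mark GAGAG or its reverse complement CTCTC, the word bound by the GAGA factor, and GCCAT or ATGGC, the core of the Pho site. Of the 12 windows, 5 held neither word, and that at lgs is the one of these shown. The toy, fd102C and PlexA summits lay upstream of a transcription start site (TSS) outside the gene. Those at ey and Sox102F lay inside the gene, upstream of an internal TSS, that of zfh2 lay in an intron 6873 bp downstream of a TSS, and that of lgs lay between genes.
toy, chr4:989499-989649: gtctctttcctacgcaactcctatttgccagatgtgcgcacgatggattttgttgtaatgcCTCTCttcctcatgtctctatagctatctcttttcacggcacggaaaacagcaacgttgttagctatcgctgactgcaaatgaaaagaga
lgs, chr4:424752-424902: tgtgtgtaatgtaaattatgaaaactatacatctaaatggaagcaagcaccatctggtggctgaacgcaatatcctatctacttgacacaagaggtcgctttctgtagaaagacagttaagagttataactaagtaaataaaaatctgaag
zfh2, chr4:508608-508758: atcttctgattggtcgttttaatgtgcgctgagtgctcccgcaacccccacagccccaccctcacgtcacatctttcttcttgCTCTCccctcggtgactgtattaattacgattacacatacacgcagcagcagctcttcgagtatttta
ey, chr4:704442-704592: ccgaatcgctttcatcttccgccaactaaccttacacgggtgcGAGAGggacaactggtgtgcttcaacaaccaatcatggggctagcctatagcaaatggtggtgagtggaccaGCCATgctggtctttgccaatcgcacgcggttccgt
PlexA, chr4:1027177-1027327: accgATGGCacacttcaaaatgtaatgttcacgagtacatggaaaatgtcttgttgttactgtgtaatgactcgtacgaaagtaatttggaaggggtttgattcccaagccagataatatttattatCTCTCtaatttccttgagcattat
fd102C, chr4:844622-844772: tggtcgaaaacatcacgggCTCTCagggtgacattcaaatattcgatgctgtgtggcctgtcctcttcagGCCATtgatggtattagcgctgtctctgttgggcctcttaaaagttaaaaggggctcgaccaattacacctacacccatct
Sox102F, chr4:807911-808061: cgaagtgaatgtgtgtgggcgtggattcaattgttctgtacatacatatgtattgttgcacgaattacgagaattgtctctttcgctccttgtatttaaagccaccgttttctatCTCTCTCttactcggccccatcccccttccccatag

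From the pericentric regions, the window of highest signal that overlapped no annotated exon is shown for each arm: upstream of scro on 3L, upstream of tio on 2L, in an intron of CG42346 on X, and upstream of CG12581 on 3R, which was not optimal. The stretch at tio held 6 matches to GAGAG or its complement, and those at scro and CG42346 held neither word. No match says only that these letters are not in this window.
scro, chr3L:24723861-24724011: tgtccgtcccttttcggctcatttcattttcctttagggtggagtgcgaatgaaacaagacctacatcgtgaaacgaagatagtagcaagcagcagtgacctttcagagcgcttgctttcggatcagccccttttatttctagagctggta
tio, chr2L:22018953-22019103: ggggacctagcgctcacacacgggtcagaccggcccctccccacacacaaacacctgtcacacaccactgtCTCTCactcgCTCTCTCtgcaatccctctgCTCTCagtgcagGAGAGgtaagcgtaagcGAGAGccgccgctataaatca
CG42346, chrX:22833655-22833805: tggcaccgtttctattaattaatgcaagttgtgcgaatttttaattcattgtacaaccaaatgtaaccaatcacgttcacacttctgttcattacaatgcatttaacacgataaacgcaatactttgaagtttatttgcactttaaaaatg
CG12581, chr3R:4174418-4174568: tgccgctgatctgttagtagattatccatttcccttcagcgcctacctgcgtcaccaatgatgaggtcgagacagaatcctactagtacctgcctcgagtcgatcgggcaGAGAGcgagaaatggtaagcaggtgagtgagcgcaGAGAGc

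Summits of E(z) were sparse in these regions. The members covered 13.2 Mb of sequence at 20.2 summits per Mb, and the rest of the 6 arms held 246 per Mb. Chromosome 4 stood closest to the rest of the genome with 105 summits per Mb, followed by X with 47.8, 2L with 24.4, 3L with 6.53 and 3R with 2.38. In the optimal list the order was the same, from 14.8 optimal summits per Mb on chromosome 4 and 4.25 on X to 0.576 on 3L and 0 on 3R, against 46.4 in the rest. Protein-coding genes were sparse in these regions as well, at 14.8 per Mb against 114 in the rest. Chromosome 4 had 59.3 genes per Mb and the pericentric regions had 9.78. How far summit density follows gene density was not tested.

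Of the 267 members, 29 were optimal, which is 10.9% (interval 7.40 to 15.2%), while 18.7% of all pooled peaks were optimal. Chromosome 4 supplied 20 of them, or 14.2% of its members (8.88 to 21.1%). The pericentric regions supplied 9 of 126, or 7.14% (3.32 to 13.1%), with 4 on X, 3 on 3L and 2 on 2L. None of the 10 members on 3R was optimal, an observation that allows a share of up to 30.8%. The interval for chromosome 4 includes the share of all pooled peaks, and that for the pericentric regions lies below it.

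The median rank of the members in the pooled list was 17823, against 15000.5 for all pooled peaks, and 2 members were among the 1000 peaks of highest signal. Both lay on chromosome 4, at toy and at Cals. The last optimal member had rank 5622, near dati, and the first member outside the optimal list had rank 5905, near Sox102F.

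**Figure D1:**
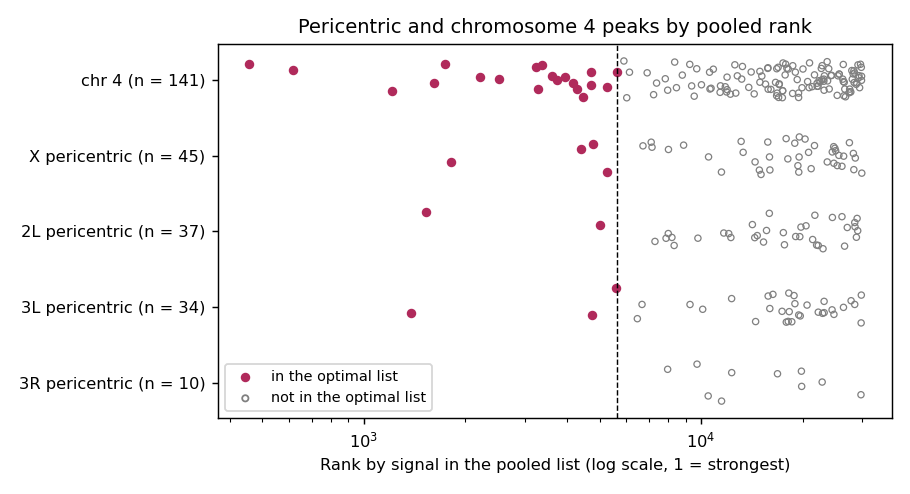
Rank of each of the 267 members by signal in the pooled list, on a log axis, by region. Filled points are the 29 optimal members, open points the others, and points are spread vertically only for legibility. The dashed line marks the last optimal member, at rank 5622. The filled points lie mostly on chromosome 4, and 3R has none.

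The bounds of the rule fell among peaks of middling and low rank on 3 arms. On 2L the nearest summit inside had rank 24529 and the nearest outside had rank 14869, both nearest to CG2528. On 3L the ranks were 18213 inside and 9826 outside, and on X they were 15066 inside and 23970 outside. On 3R the nearest summit inside, 3252 bp downstream of the TSS of the neuropeptide gene Dsk, had rank 11506, while the nearest outside, at CG14636, was optimal with rank 668.

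The replicates were compared by their strong lists, the 5623 highest-signal peaks of each relaxed list. Replicate 1 had 22 strong summits in the regions, replicate 2 had 36 and replicate 3 had 23. These gave 2.04 ± 0.591 per Mb (SD, n = 3), and the rest of the arms gave 46.4 ± 0.0647 per Mb. The regions were lower in 3 of 3 replicates by 44.3 ± 0.656 per Mb on average. Each strong list has the same length, so the count in the rest follows from that in the regions. The small SD of the rest is therefore no separate measure of replicate variation. The gap was far larger than the spread of the regions between replicates. An exact two-sided permutation test that flips the sign of each replicate gave p = 0.25, the smallest that 3 replicates allow.

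Chromosome 4 alone had 15, 22 and 17 strong summits in replicates 1, 2 and 3, or 13.4 ± 2.67 per Mb. The pericentric regions had 7, 14 and 6, or 0.758 ± 0.367 per Mb. The groups of values did not overlap: the lowest replicate of chromosome 4 had 11.1 per Mb and the highest of the pericentric regions had 1.18.

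Among weaker peaks the replicates parted. The relaxed lists held 482, 401 and 172 summits in the regions in replicates 1, 2 and 3, so that replicate 3 had the fewest by a wide margin. On chromosome 4 the counts were 280, 200 and 114. On 3L they were 62, 72 and 11, and on 2L they were 75, 59 and 15. Replicate 3 was lowest on every one of the 5 arms, also on 3R with 24, 19 and 5 and on X with 41, 51 and 27. All 3 lists have the same length, so the rest of the genome differed little, between 245 and 247 per Mb.

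**Figure D2:**
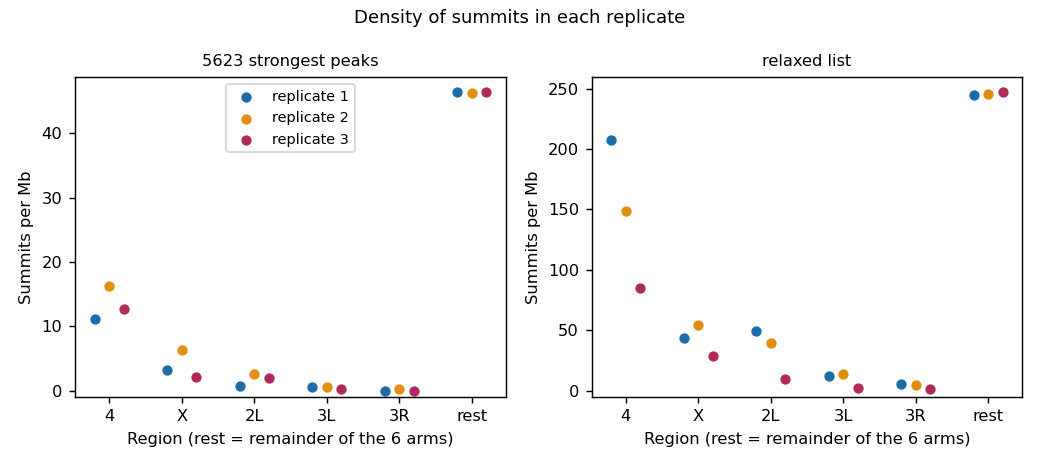
Summits per Mb in each replicate for chromosome 4, the 4 pericentric regions and the rest of the 6 arms, in the 5623 strongest peaks (left) and in the relaxed list (right). Each point is 1 replicate. In the relaxed lists replicate 3 is lowest in all 5 regions, and in both panels every region lies below the rest.

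A member counted as found in a replicate if a relaxed peak of that replicate covered its summit. On chromosome 4, 70.9% of members were found in replicate 1, 67.4% in replicate 2 and 56.7% in replicate 3. In the pericentric regions the shares were 68.3%, 69.8% and 30.2%, and in the rest of the genome they were 70.9%, 70.2% and 66.9%. Replicates 1 and 2 thus found these peaks about as often as other peaks, and replicate 3 found fewer, above all in the pericentric regions. Among the 51 pericentric members within 1 kb of a protein-coding TSS, 86.3%, 76.5% and 25.5% were found in replicates 1, 2 and 3, and among the 37 such members of chromosome 4 the shares were 86.5%, 81.1% and 70.3%. The pooled list comes from the same 3 replicates, and the cause of the low share in replicate 3 was not tested.

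Of all members, 65 (24.3%) were found in all 3 replicates, against 39.0% of all pooled peaks. A further 106 were found in 2 replicates, 80 in 1 and 16 in none. Neighbouring members can lie in the same replicate peak, which was the case for 26 members in replicate 1, 20 in replicate 2 and 14 in replicate 3.

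**Figure D3:**
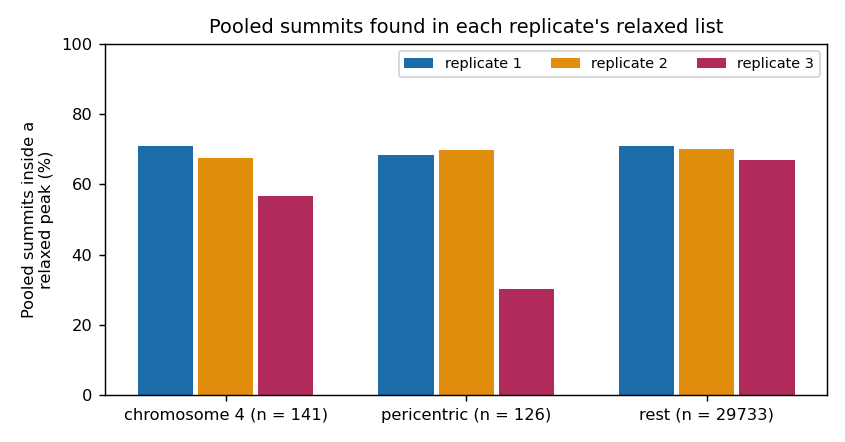
Share of pooled summits that lay inside a relaxed peak of each replicate, for the 141 chromosome 4 members, the 126 pericentric members and the 29733 other pooled peaks. Bars start at 0 and each is 1 replicate. The pericentric bar of replicate 3 stands at 30.2%, and the other bars lie between 56.7% and 70.9%.

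The strongest member lay 151 bp upstream of toy, a Pax6 gene that acts at the top of the eye determination network. Its rank was 455 in the pooled list and 940, 538 and 189 in replicates 1, 2 and 3. A second summit 50 bp downstream of the same TSS had pooled rank 4158 and ranks 940, 7188 and 5719. Both toy summits lay inside the same peak of replicate 1, so its rank counts for either. The strong toy summit was among the top 1000 peaks in every replicate, and the weaker one only through this shared peak.

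The other Pax6 gene, ey, which directs eye development downstream of toy, had its best summit 134 bp upstream of a TSS. It had pooled rank 1740 and ranks 3071, 2983 and 627 in the replicates. The Pax2 gene sv, which acts in bristle and cone cell formation, had optimal summits near TSSs at ranks 3376 and 3743. The first, 13 bp downstream of a TSS, ranked 8140, 3903 and 1283, and the second, 743 bp upstream of one, ranked 6440, 3804 and 2878. At toy, ey and both sv summits alike, replicate 3 placed the upstream or core summit highest and replicate 1 placed it lowest.

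The same order was seen at fd102C, a forkhead gene, whose summit 168 bp upstream had pooled rank 2521 and ranks 3983, 2652 and 1480. It was seen at Sox102F, a SoxD gene, with pooled rank 3247 and ranks 4584, 3885 and 1529. The homeobox and zinc finger gene zfh2, which acts in wing hinge and leg development, had 3 optimal summits. Its intronic summit 6873 bp downstream ranked 1612 in the pooled list and 6686, 1526 and 654 in the replicates. The summit 6 bp downstream of the TSS ranked 4723 in the pooled list and 5584, 6385 and 4329, and the one 3620 bp downstream ranked 4710 and 5946, 3457 and 8605. Replicate 3 was thus the highest at the first pair and the lowest at the third. For ci, the Gli factor of the Hedgehog pathway, the summit 89 bp upstream of the TSS had pooled rank 4275 and ranks 7693, 7082 and 1983, again best in replicate 3.

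Other optimal members of chromosome 4 ran the other way. PlexA, a semaphorin receptor in axon guidance, had pooled rank 2215 and ranks 2553, 1684 and 5810. The summit 3448 bp upstream of ci ranked 3949 in the pooled list and 3132, 3565 and 9193 in the replicates. A summit 4519 bp upstream of fuss, a gene of the Ski and Sno family, ranked 3278 in the pooled list and 3647, 3371 and 6074. At these 3 summits replicate 3 was the lowest of the replicates.

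The second-ranked member was the one optimal member of chromosome 4 missing from a replicate. It lay in an untranslated exon of Cals, which encodes the cadherin-like protein calsyntenin, with pooled rank 618 and ranks 711 and 693 in replicates 1 and 2. No relaxed peak of replicate 3 covered it. The third-ranked member lay between genes, nearest to a TSS of lgs, the BCL9 coactivator of the Wnt pathway, at a distance of 19084 bp. It had pooled rank 1210 and ranks 1132, 2953 and 816.

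The zinc finger gene dati had 3 optimal summits, all upstream, at 397, 8947 and 11348 bp, and the replicates differed most over the distal ones. That at 8947 bp had ranks 4785, 15053 and 4167, and that at 11348 bp had ranks 3814, 20883 and 8532. Replicate 2, the lowest at both, was the highest at the third, with ranks 6296, 3020 and 10782.

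Counted over the 20 optimal members of chromosome 4, replicate 3 gave the best of the 3 ranks at 12 and the worst rank, or none, at 6. Of the 9 optimal pericentric members it gave the best rank at 1 and the worst, or none, at 7. All 29 were found in replicates 1 and 2, and 25 were found in replicate 3. In the strong lists of all 3 replicates stood 9 of the 29 (31.0%), against 55.9% of all optimal peaks. Because the authors made the optimal list from the same 3 replicates, these counts only describe it.

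**Figure D4:**
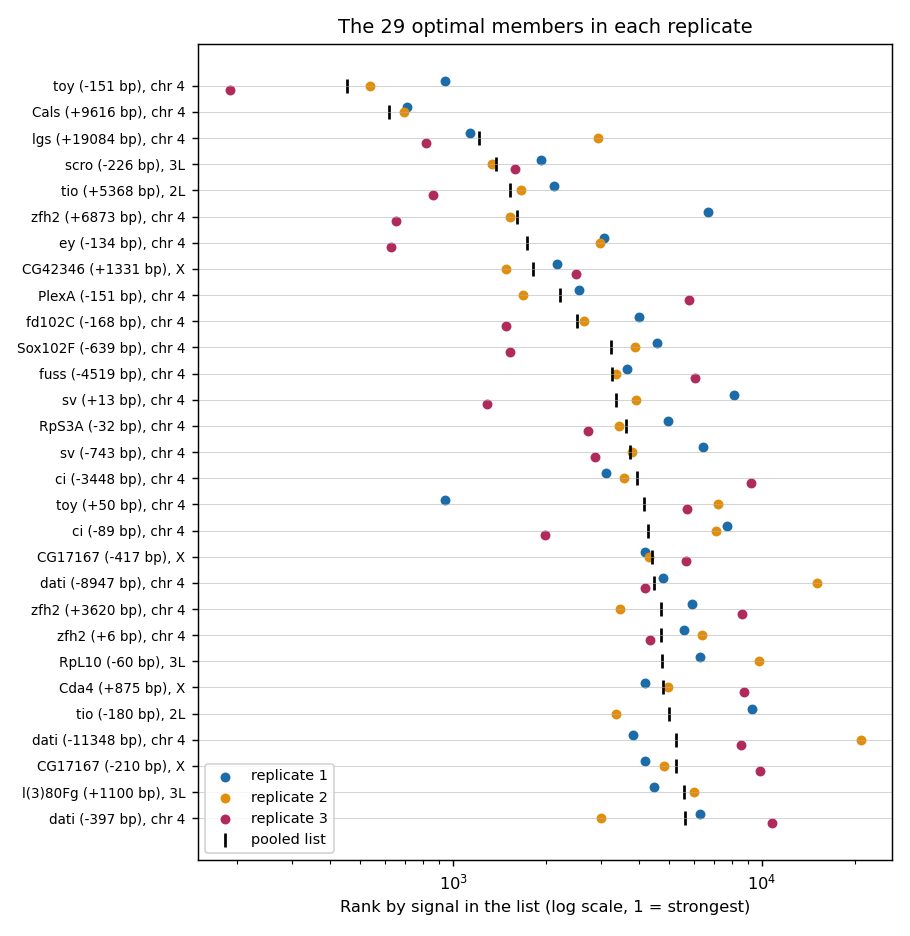
Rank by signal of each of the 29 optimal members in the pooled list (black bar) and in each replicate (coloured points), on a log axis where 1 is the strongest. Names give the gene of the nearest TSS and the distance to it, negative for upstream. Replicate 3 lies farthest left at 12 of the 20 chromosome 4 members and at 1 of the 9 pericentric members, and 4 members have no point for it.

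The pericentric member of highest signal lay 226 bp upstream of scro on 3L, a homeobox gene of the NK2 family. It had pooled rank 1380 and ranks 1931, 1331 and 1585, close together in the replicates. On 2L, tio, a zinc finger gene related to teashirt, had optimal summits in its untranslated sequence and upstream. The first ranked 1528 in the pooled list and 2121, 1663 and 863 in the replicates. The second, 180 bp upstream, ranked 5009 in the pooled list and 9280 and 3377 in replicates 1 and 2, and was not covered in replicate 3.

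On X the best summit lay in an intron shared by CG42346 and fog, the gene of a secreted ligand that drives cell shape change in gastrulation. It had pooled rank 1816 and ranks 2162, 1482 and 2497. Summits 417 and 210 bp upstream of a TSS of CG17167 had pooled ranks 4406 and 5278. They lay inside the same replicate 1 peak, of rank 4167, and ranked 4319 and 4826 in replicate 2 and 5659 and 9838 in replicate 3. One 875 bp downstream of a TSS of Cda4, a gene of the chitin deacetylase family, had pooled rank 4770 and ranks 4183, 4951 and 8736. Replicate 3 was lowest at all 4 of these X summits.

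Of the 5 cytosolic ribosomal protein genes in the regions, 4 had a pooled summit within 1 kb of a TSS and 2 an optimal one, a group picked out after its values were seen. Over all protein-coding genes these shares were 35.2% and 16.1%. RpL21 on 2L had none in the pooled list or in any replicate. RpS3A on chromosome 4 had pooled rank 3616 and ranks 4954, 3442 and 2733. RpL10 on 3L had pooled rank 4740 and ranks 6310 and 9771 in replicates 1 and 2, with none in replicate 3. Outside the optimal list, RpL15 on 3L had pooled rank 6684 and RpL5 on 2L had 7996, and neither was covered in replicate 3. With a further, weaker summit at RpL5 these 4 genes had 5 summits, of which 5 were found in replicate 1, 4 in replicate 2 and 1 in replicate 3. The only other optimal member of 3L lay in an intron of l(3)80Fg, with pooled rank 5608 and ranks 4476 and 6004 in replicates 1 and 2 and none in replicate 3.

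On 3R the best summits of the pooled list were those at CG12581, with rank 7962, and at Gfat1, a gene of hexosamine synthesis, with rank 9732. In replicates 1, 2 and 3 no strong list held more than 1 summit on 3R, with counts of 0, 1 and 0. The strong summit of replicate 2 lay 76 bp upstream of a TSS of CG41099, with rank 4127. Replicate 1 had a peak there with rank 5736, and neither the pooled list nor replicate 3 had one.

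Members lay near start sites somewhat more often than pooled peaks did in general. Within 1 kb of a protein-coding TSS were 88 of 267 members, or 33.0% (27.4 to 39.0%), against 25.7% of all pooled peaks. The pericentric share was 40.5% and that of chromosome 4 was 26.2%. Of the 29 optimal members 18 (62.1%) lay within 1 kb, against 40.8% of all optimal peaks. In the strong lists the share was 59.1%, 63.9% and 65.2% in replicates 1, 2 and 3, and 39.2%, 41.1% and 49.6% elsewhere in the genome. The difference was 19.4 ± 3.58 percentage points (SD, n = 3), higher in 3 of 3 replicates, and the exact two-sided permutation test gave p = 0.25, the smallest possible.

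Of the other members, 79 lay in introns, 79 between genes, 16 in coding exons and 5 in untranslated exons. Coding exons held 6.0% of the members and 1.70% of all pooled peaks. Of those 16, 11 lay on chromosome 4, among them 3 in dati and 3 in zfh2. None of the 16 was optimal, and of the 509 pooled peaks in coding exons over all 6 arms 11 were.

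The regions held 196 protein-coding genes, and 15 of them (7.65%) had an optimal summit no more than 1 kb from a TSS, against 16.1% of all protein-coding genes. On chromosome 4 these were 10 of 80 genes (12.5%, interval 6.16 to 21.8%), and in the pericentric regions 5 of 116 (4.31%, 1.41 to 9.77%). With all pooled summits the share was 30.1% of the 196 genes, against 35.2% of all genes.

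In a list of 32 developmental and signalling genes of chromosome 4, 13 (40.6%) had a pooled summit within 1 kb of a TSS and 9 (28.1%) had an optimal one. Over all 80 genes of chromosome 4 these shares were 23.75% and 12.5%, and over all protein-coding genes 35.2% and 16.1%. The list was drawn up with earlier results of these data known. The 9 genes with an optimal summit were ci, ey, toy, sv, zfh2, Sox102F, fd102C, dati and PlexA. A pooled summit below the optimal threshold was seen at pan, the TCF factor of the Wnt pathway, with rank 10602, and at myo, a ligand of the TGF-beta family, with rank 7234. One was also seen at CaMKII, a kinase of synaptic plasticity, with rank 9381. Another, of rank 7964, lay within 1 kb of a TSS of Zyx, a focal adhesion protein. Its nearest TSS was one of apolpp, at 143 bp. The other 19 had none. One of these was pho, which encodes the DNA-binding subunit of the Pho repressive complex, and no replicate had a relaxed peak within 1 kb of it.

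In a list of 20 genes known from pericentric heterochromatin, 9 (45%) had a pooled summit within 1 kb. Only scro, 1 of the 20 (5%), had an optimal one. Over all 116 pericentric genes these shares were 34.5% and 4.31%, and over all protein-coding genes 35.2% and 16.1%. Among the 9 were cta, a G protein subunit downstream of fog, with rank 14682, and vtd, the Rad21 subunit of cohesin, with rank 18873. They also included su(f), a factor of mRNA 3' end cleavage, with rank 10528, and fog with rank 8879. Parp1, Snap25, Set1 and the ecdysone synthesis genes nvd and spok had none, either in the pooled list or in any replicate.

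Most summits of chromosome 4 lay in runs, as summits did in the genome as a whole. Runs of at least 5 members with neighbours no more than 5 kb apart held 117 of its 141 members (83.0%) and covered 163 kb, or 12.1% of the chromosome. By the same rule 77.8% of all pooled peaks lay in runs, which covered 22.7% of the 6 arms, and 41 of the 126 pericentric members (32.5%) lay in runs. The largest runs were 20 summits over 32.7 kb at dati and lgs, 19 at toy and fuss, 18 at ey, 18 at zfh2 and 14 at Sox102F and fd102C. In the pericentric regions the largest were 12 summits around tio and 11 at fog.

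The genes of chromosome 4 differed widely in how many members lay nearest to them. The counts were 19 for dati, 18 for zfh2, 16 for Sox102F, 15 for ey and 13 for toy. There were 8 each for fd102C, lgs and sv. Those nearest to lgs all lay outside the gene, from 15238 to 22579 bp away from a TSS. The count for fuss was 6. Among other transcription factor genes, ci was nearest to 4 members, pan to 1, and pho, onecut and Mitf to 0. In 7 stretches of over 50 kb no pooled summit was found. They covered 937 kb, or 69.5% of chromosome 4, and held at least 1 start site of each of 64 genes, those close to an edge, such as ci, included. The longest, between 68548 and 378476, measured 309.9 kb.

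The stretches without a pooled summit were not empty in every replicate. Counting only summits outside pooled peaks, replicate 1 had 100 relaxed summits in them, replicate 2 had 52 and replicate 3 had 0. Most were weak, and 2, 3 and 0 were in the strong lists. The strongest lay at gw, which encodes the GW182 protein of microRNA silencing, with rank 1615 in replicate 1 and 1568 in replicate 2. Neither the pooled list nor replicate 3 had a peak there.

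Over all the regions, the pooled list left out 2 of 22 strong summits of replicate 1, 6 of 36 of replicate 2 and 2 of 23 of replicate 3. These are 9.09%, 16.7% and 8.70%, against 4.32%, 4.58% and 9.18% of the strong summits in the rest of the genome. Of the relaxed summits, 39.2%, 46.4% and 68.0% lay inside a pooled peak in replicates 1, 2 and 3. In the rest of the genome these shares were 71.8%, 70.6% and 67.3%. Replicates 1 and 2 thus had many weak peaks in these regions that the pooled list did not hold, and replicate 3 did not stand apart from its own genome-wide share.

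Repeats filled more of the regions than of the sequence around the summits. Over the regions 39.4% of bases were soft-masked as repeats in the RefSeq sequence, and in the rest of the arms 18.1% were. In windows of 250 bp each side of a member summit the median was 18.4% (quartiles 9.28 and 27.2%), and it was 17.0% for all pooled peaks. The GC share of these windows had a median of 37.9%, against 41.7% for all pooled peaks. Over the regions as a whole GC was 39.4%, and in the rest of the arms it was 42.5%. Chromosome 4 had a median of 37.3% around summits and 35.2% over its length, and the pericentric regions had 39.0% and 39.9%.

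Summits inside annotated transposable elements were few but more frequent than elsewhere. There were 28 such members (10.5%), 19 on chromosome 4 and 9 pericentric, against 0.357% of all pooled peaks. Elements covered 12.1% of the regions and 5.41% of the 6 arms. The 28 had a median rank of 21893.5 and a best rank of 10029, so none was optimal. Of all 107 pooled peaks in elements, these 28 included, 10 were optimal. Of the 28 member summits, 16, 18 and 10 were found in replicates 1, 2 and 3. How reads that match several repeats were placed is not given in the sources used here, so the values at these members are uncertain.

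**Figure D5:**
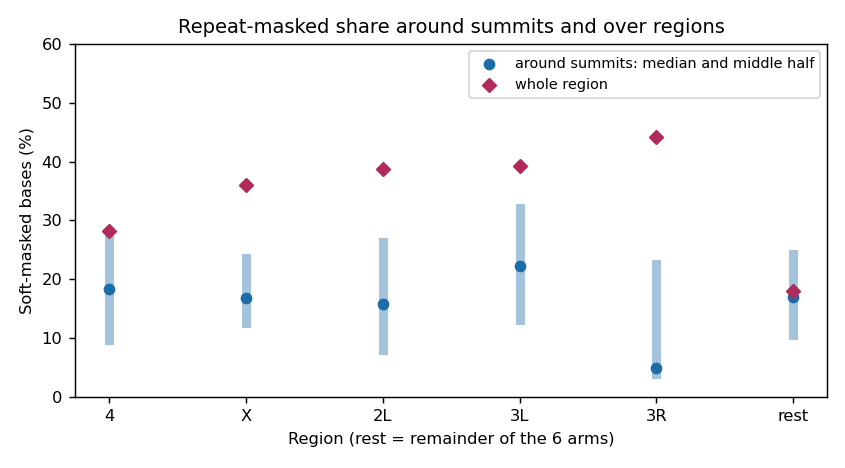
Share of soft-masked bases around summits (circle, median; bar, from lower to upper quartile; windows of 250 bp each side) and over the whole region (diamond), for chromosome 4, the pericentric regions and the rest of the 6 arms. In each of the 5 regions the median around summits lies below the share of the whole region, and in the rest the circle and diamond nearly meet.

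Fixed words of Polycomb response element binders and of housekeeping promoters were searched on both strands in the same windows. GAGAG or CTCTC was present around 48.7% of members (42.6 to 54.9%) and 52.1% of all pooled summits. It was present around 21 of the 29 optimal members (72.4%, 52.8 to 87.3%) and 59.5% of all optimal summits. GCCAT or ATGGC was present around 54.3% of members and 64.8% of all pooled summits, and GTGTG or CACAC, the type of word bound by Combgap, around 59.6% and 66.6%. The interval for GAGAG around members includes the pooled share, and that for GCCAT (48.1 to 60.4%) lies below it. GCCAT was present around 65.5% of the 29 optimal members (45.7 to 82.1%) and 59.6% of all optimal summits. GTGTG was present around 75.9% (56.5 to 89.7%) and 69.0%.

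TACCT or AGGTA was present around 50.6% of members (44.4 to 56.7%) and 35.6% of all pooled summits. AGTGAG or CTCACT, which can overlap GAGAG, was present around 16.5% and 18.7%, and CGCGA or TCGCG around 27.3% and 32.9%. Of the 6 words, TACCT was the one more frequent around members than around all pooled summits. Around the 29 optimal members the shares were 62.1% for TACCT (42.3 to 79.3%), 17.2% for AGTGAG and 34.5% for CGCGA. Around all optimal summits they were 37.4%, 21.6% and 36.0%. A match describes the sequence and shows no binding.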

How the data were processed

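The authors deposited peak lists in narrowPeak layout for 3 replicates, for the pooled alignments and for the optimal peaks, in dm6 and dm3. Which aligner and peak caller were used, and in which versions, is not given in the sources used here, and a possible control experiment that the labels name was not used here. The signal value that the authors deposited for each peak has no stated scaling, so it only ranked peaks. Each peak's deposited −log10 q-value, at most 3.97 among the members, entered no test. Summit offsets, also deposited, placed the summits. Depth per sample is unknown, so no precision was derived from it.

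Genes and TSSs came from Ensembl release 115 (BDGP6.54), and sequence, soft-masking and transposable elements from RefSeq, both in dm6 coordinates. Computations used Python 3.11.15, pandas 2.3.3, NumPy 2.4.6 and SciPy 1.17.1, and the code was tested on simulated data. Replicates were compared with an exact two-sided sign-flip permutation test, and other shares were set beside those of all pooled peaks or genes without a test. The 3 replicates are biological per the labels. No column of per-sample values was left unused (0).

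Genes were named by the nearest protein-coding TSS of the 25 members of highest signal, of every optimal member and of the 5 best members of each region, with the genes of both lists. The genes gw, CG41099 and apolpp and the ribosomal protein genes were chosen after their values were seen. The regions, the gene lists and the words searched were chosen with earlier results of these data known, and listed symbols outside the regions were left out.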

Additional observations from a re-analysis of the deposited data

Results flagged for a closer look

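In the older dm3 build, some heterochromatin stands in separately named or unplaced sequences, while the comparisons above use the dm6 arms. The pooled dm3 list held 30 peaks there, of which 23 lay on named heterochromatic sequences and 7 on unplaced sequence. The optimal dm3 list held 6, with 3 of each kind, and the best rank on a named heterochromatic sequence was 1370. The relaxed lists of replicates 1, 2 and 3 had 50, 63 and 4 peaks on the named sequences and 10, 9 and 8 on unplaced sequence. These peaks were picked out because those sequence names are not among the dm6 arms compared above. They can be peaks of the dm6 regions counted again, which was not tested. The best ranks on named sequences in replicates 1, 2 and 3 were 1879, 1312 and 1573. The scro summit in dm6 had ranks 1931, 1331 and 1585, and its pooled rank was 1380. No control samples were analysed, and no coordinates were carried between the builds.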

How the results depend on the processing

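The difference in density of strong summits was judged by its direction alone and was below 0, regions minus rest, in all 11 of its alternatives, from -86.1 to -8.04 per Mb, including length counted over unmasked bases, which was chosen after seeing the data. Its size moved with the list size and the region. Of the other alternatives, 18 moved their value and 9 did not. The share of optimal members was 3.75% with the higher-signal part of the optimal list, against 9.37% of all pooled peaks, and 7.14% without chromosome 4. Leaving out a replicate, with optimal peaks required in both other strong lists, it ranged from 4.12 to 5.99%, against 11.6 to 13.6% of all pooled peaks. The share near a TSS was 25.1% within 500 bp, 65.5% within 5 kb, 40.1% with all annotated genes, and 62.1% for optimal members only, an alternative chosen after seeing the data. The same shares of all pooled or all optimal peaks were 18.3%, 58.8%, 30.8% and 40.8%. Members present in both remaining replicates ranged from 31.5% without replicate 1 to 47.9% without replicate 3, against 49.0% and 51.9% of all pooled peaks. In windows of 100 bp each side, GAGAG was present around 25.1% of members (25.8% of all pooled summits), GCCAT around 27.3% (33.1%), GTGTG around 33.3% (35.3%), TACCT around 25.5% (17.1%), AGTGAG around 5.99% (7.99%) and CGCGA around 10.5% (14.3%). These shares fell because the windows are shorter. Chromosome 4 had 20 optimal peaks in dm6 and in dm3. No paired analysis was possible because the replicates form 1 group, so replicate numbers pair no samples. The sign-flip tests compared parts of the genome within each replicate.

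The smallest p that 3 replicates allow is 0.25. Unknown depth limits what an absent peak shows.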
